A study of Mus musculus with 18 samples.

Results

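Nascent transcription of the genes for the subunits of the Polycomb repressive complexes was examined in mouse embryonic stem cells. The 31 genes were taken by symbol from the 21859 protein-coding genes of the series, from a list of known subunits and not by their levels. They comprised 11 genes of Polycomb repressive complex 2 (PRC2), 9 of canonical PRC1, 9 of variant PRC1, and Rnf2 and Ring1, the E3 ligases that every PRC1 shares. A row for the promoter upstream transcript (PROMPT) of the same symbol was found for 27 of them among 32253 PROMPTs. A PROMPT is the short unstable RNA made in the opposite direction from many promoters, and it was counted here in a window within 1 kb upstream of a start site, on the antisense strand.

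The study asked how FACT, a histone chaperone made of SPT16 and SSRP1, acts on transcription in these cells. Transient transcriptome sequencing (TT-seq) captures RNA labelled with 4-thiouridine during a 5-min pulse, so that it reads RNA being made and not the stored pool. There were 18 libraries in 6 groups of 3, the libraries of a group being repeats of 1 line. Untagged E14 cells carried the plant F-box gene osTIR1, and clones 1 and 2 carried in addition a mini-AID and triple V5 tag at the C-terminus of SPT16. Each of these 3 lines was treated for 24 h with 0.1% ethanol (EtOH) or with 3-IAA, an auxin that drives degradation of the tagged protein. The labels give the 3-IAA dose as 500 nM. The methods of the study give it in micromolar units instead. The cells were grown without feeders in serum with LIF and inhibitors of GSK3 and MEK, and each tagged line was a single clone.

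The values available for this description were pooled. The deposited tables give for each gene the mean normalized count over libraries, with tagged and untagged, EtOH and 3-IAA libraries together, and otherwise only columns of the authors' own comparison, which were not used. The design has 12 control libraries and 6 libraries of SPT16-depleted cells. Neither a value per library nor a spread between replicates could be given, and no test was made. Genes next to each other in an order of levels therefore cannot be said to differ. Nothing here says whether a gene rose or fell on depletion of SPT16. In bulk RNA, fewer cells that transcribe a gene and less RNA per cell cannot be told apart.

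Polycomb complexes keep developmental genes silent. PRC2 methylates histone H3 on lysine 27 through EZH2 or EZH1, and PRC1 ubiquitylates histone H2A through RNF2 (RING1B) or RING1. Canonical PRC1 holds a CBX protein that reads the methyl mark and a PHC protein that polymerises and compacts chromatin. Variant PRC1 holds RYBP or YAF2 in place of CBX, and can reach its targets without the methyl mark, for example through KDM2B, which binds unmethylated CpG islands. In embryonic stem cells these complexes occupy the CpG islands of silent lineage genes.

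The 6 promoters shown here were chosen because the clearest contrast within these genes was between promoters with abundant and with nearly undetectable PROMPTs. They are the 3 with the highest and the 3 with the lowest PROMPT mean above 0, among the 12 genes whose RefSeq start coincided with the 5′ end of the Gencode gene. Each runs on the strand of the gene from 250 bases before the start to 50 bases from it, so that the start is position 251 (RefSeq, GRCm38.p6). Capitals mark matches, on either strand, to the GC box (GGGCGG), the CCAAT box (CCAAT) and the E-box (CACGTG), and no match to the other motifs searched lay in these 6 windows.
Suz12, chr11:79992856-79993155, plus strand: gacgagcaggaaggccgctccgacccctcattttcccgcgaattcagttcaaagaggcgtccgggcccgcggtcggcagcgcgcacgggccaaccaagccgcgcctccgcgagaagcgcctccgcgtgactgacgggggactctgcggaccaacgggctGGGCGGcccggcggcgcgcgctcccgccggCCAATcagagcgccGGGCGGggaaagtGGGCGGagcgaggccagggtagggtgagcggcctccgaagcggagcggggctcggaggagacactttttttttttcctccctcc
Mtf2, chr5:108065424-108065723, plus strand: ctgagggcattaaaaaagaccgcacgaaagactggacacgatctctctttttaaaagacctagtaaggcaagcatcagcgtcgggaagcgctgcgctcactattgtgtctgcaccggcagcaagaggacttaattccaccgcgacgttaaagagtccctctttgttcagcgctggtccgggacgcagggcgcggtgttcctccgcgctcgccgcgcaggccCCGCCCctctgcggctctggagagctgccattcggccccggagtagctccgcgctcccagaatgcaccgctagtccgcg
Aebp2, chr6:140622413-140622712, plus strand: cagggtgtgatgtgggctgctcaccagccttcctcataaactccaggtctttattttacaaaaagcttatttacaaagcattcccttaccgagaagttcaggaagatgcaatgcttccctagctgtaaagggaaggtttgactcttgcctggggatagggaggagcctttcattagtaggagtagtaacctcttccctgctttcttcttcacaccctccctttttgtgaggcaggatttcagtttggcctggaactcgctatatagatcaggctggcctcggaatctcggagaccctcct
Phc2, chr4:128654452-128654751, plus strand: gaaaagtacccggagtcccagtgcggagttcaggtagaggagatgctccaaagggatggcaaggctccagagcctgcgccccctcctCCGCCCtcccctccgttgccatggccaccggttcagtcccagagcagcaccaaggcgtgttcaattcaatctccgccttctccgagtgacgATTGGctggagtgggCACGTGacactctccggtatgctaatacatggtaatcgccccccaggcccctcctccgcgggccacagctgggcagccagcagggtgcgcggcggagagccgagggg
Bcor, chrX:12160306-12160605, minus strand: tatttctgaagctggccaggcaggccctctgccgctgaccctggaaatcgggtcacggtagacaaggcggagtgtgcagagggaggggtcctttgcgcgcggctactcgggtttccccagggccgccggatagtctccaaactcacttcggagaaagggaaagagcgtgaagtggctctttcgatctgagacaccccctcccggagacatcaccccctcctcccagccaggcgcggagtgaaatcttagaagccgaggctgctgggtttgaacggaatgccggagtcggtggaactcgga
Ezh1, chr11:101226414-101226713, minus strand: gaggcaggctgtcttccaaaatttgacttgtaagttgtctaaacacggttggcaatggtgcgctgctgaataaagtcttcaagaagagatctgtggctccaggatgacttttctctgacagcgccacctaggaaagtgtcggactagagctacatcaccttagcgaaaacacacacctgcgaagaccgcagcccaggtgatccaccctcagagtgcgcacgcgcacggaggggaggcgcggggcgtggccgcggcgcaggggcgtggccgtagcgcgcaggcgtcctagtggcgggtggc

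Suz12, with the highest PROMPT, held 41 CpG dinucleotides in this window, 3 GC boxes and a CCAAT box. Mtf2 held 30 CpGs and 1 GC box. Aebp2, also among the highest, held 4 CpGs and none of the motifs, and the promoter with most CpGs among its annotated starts lay 2246 bases downstream, with 21. The windows of the 3 genes with the lowest PROMPTs were not poor in CpG, with 19 in Phc2, 21 in Bcor and 23 in Ezh1. Phc2 too has a start richer in CpG, 72869 bases downstream, with 45. The window of Phc2 shown here held 1 match to each of the 3 motifs, whereas those of Bcor and Ezh1 held none. CpG counts and motif matches thus overlapped between the promoters with high and with low PROMPTs.

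A RefSeq window was found for 27 of the 31 genes, not for Rybp, Cbx2, Yaf2 and Pcgf1. The genes' promoters were rich in CpG as a group. Their median CpG count was 24 in 300 bases, from 4 in Aebp2 to 41 in Suz12, beside a median of 14 over 16770 promoters of coding genes. Their median GC content was 64.3% against 56.8%, and the ratio of observed to expected CpG was 0.810 against 0.600. The GC box stood in 19 of the 27 windows (70.4%) and in 48.0% of all promoters. The CCAAT box stood in 11 (40.7%), near the 39.1% of all promoters. The E-box stood in 7 (25.9%), namely Bmi1, Cbx6, Cbx8, Pcgf2, Phc2, Phc3 and Rbbp4, against 8.09% of all promoters. The YY1 motif (AAGATGG), bound by the mammalian relative of the fly Polycomb recruiter Pleiohomeotic, stood in Phc3 and Phf19 alone, with a share of 6.37% over all promoters. None of the 27 windows held the TATA box (TATAAA), the ETS motif (CCGGAAG) or the octamer (ATTTGCAT), which stood in 13.1%, 12.2% and 1.69% of all promoters. Motifs were searched on both strands, and a match describes letters in this window and not a bound site. The E-box, the GC box and the ETS motif each hold a CpG, and the part of CpG content in their shares was not tested.

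The genes were transcribed well above the typical coding gene. Levels are compared between genes per kb, as the pooled mean normalized count divided by the length of the gene from first to last annotated base, because reads were counted over introns as well as exons. The median over the 30 genes that could be measured was 172 per kb, beside a median of 21.7 over all coding genes with reads, whose lower and upper quartiles were 0.670 and 117. Of the 30, 18 (60.0%) lay above the upper quartile of all genes. The 12 highest lay above the 90th percentile, and 7 of these belonged to PRC2, 3 to canonical PRC1 and 1 to variant PRC1, with Rnf2 as the remaining gene. Pcgf5, Cbx8 and Phf19 lay below the median of all genes.

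**Figure D1:**
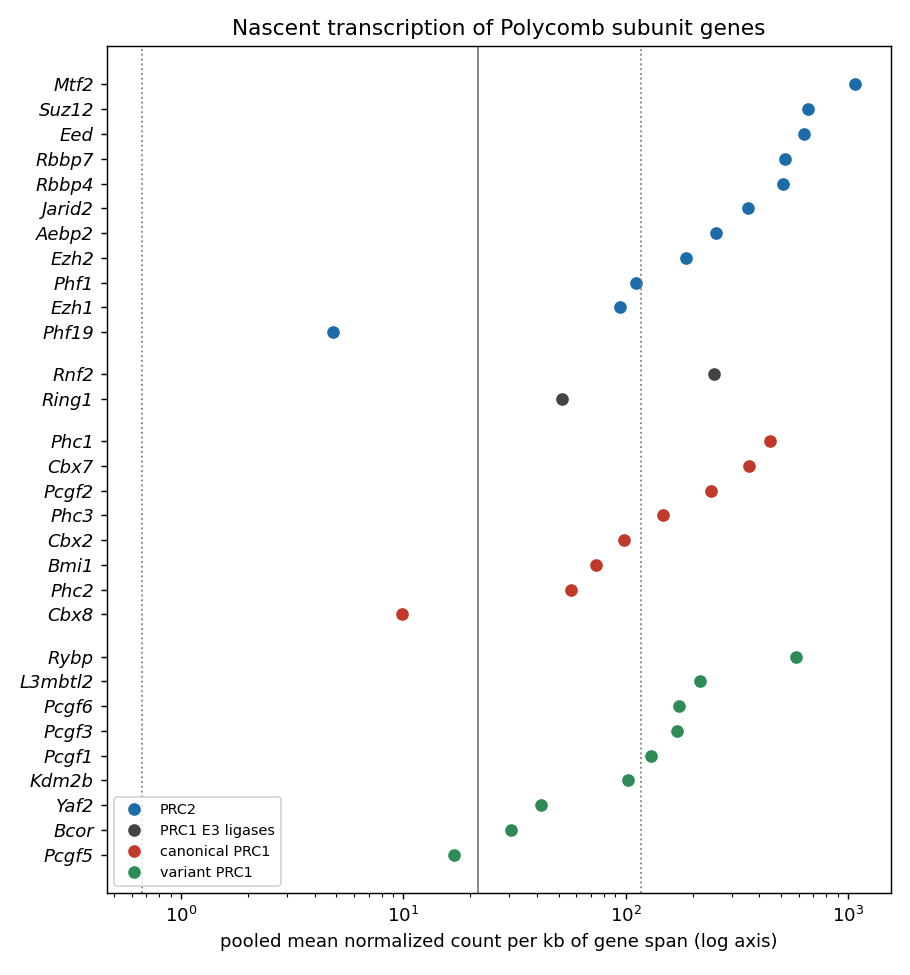
Pooled mean normalized count per kb of gene span (log axis) for each of 30 Polycomb subunit genes, ordered by level within PRC2, the PRC1 E3 ligases, canonical PRC1 and variant PRC1. Each point is 1 pooled value with no error available. The solid line is the median of all coding genes (21.7) and the dotted lines their quartiles (0.670 and 117). Mtf2 is highest at 1075 and Phf19 lowest at 4.85, and Cbx6 is not drawn because its level could not be measured.

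PRC2 had the highest median of the 3 classes, 354 per kb over its 11 genes, and 8 of these lay above the upper quartile of all genes. The structural core was read at similar levels per kb of span. Suz12, the scaffold that holds the complex together, had a pooled mean of 27093 normalized counts over its 41.0 kb on chromosome 11 (chr11:79993106-80034123), or 661 per kb. Eed, which binds the trimethyl mark and stimulates the enzyme, had 16667 counts and 633 per kb (98.0th percentile). The histone-binding proteins Rbbp7 and Rbbp4, which also serve other chromatin complexes, had 523 and 510 per kb. These 4 genes thus lay between the 97.2nd and the 98.1st percentile per kb of span. Per kb of exon they were less alike, from 1650 in Rbbp4 to 5479 in Suz12. Rbbp4 stood above Rbbp7 when counts were not divided by length, with a ratio of 1.48.

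The catalytic subunits were lower per kb of span. Ezh2, the main methyltransferase of dividing cells, had 12141 counts over 65.2 kb (chr6:47530139-47595341), or 186 per kb (85.3rd percentile). Ezh1, its weaker paralogue, had 3335 counts and 94.3 per kb (70.3rd percentile). The level of Ezh2 was 1.97 times that of Ezh1 per kb of span, 4.06 times per kb of exon and 3.64 times without length. Per kb of span both were below each of the other 4 core genes. By count, however, Ezh2 stood above Rbbp7, which had 9774. Per kb of exon it stood above Rbbp4, with 1818 against 1650.

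The accessory subunits spread more widely than the core. Mtf2 (PCL2), a Polycomb-like protein that brings PRC2.1 to CpG islands, was the highest of the genes per kb of the Gencode span, with 46565 counts over 43.3 kb (chr5:108065674-108109004), or 1075 per kb (99.0th percentile). Its paralogues Phf1 (PCL1) and Phf19 (PCL3) had 112 and 4.85 per kb, so that Mtf2 stood 9.64 and 222 times above them. Per kb of exon these ratios were 52.6 and 419, and without length 86.0 and 474. Phf19 had a pooled mean of only 98.2 counts over 20.3 kb. Of the PRC2.2 subunits, Jarid2, a DNA-binding member of the Jumonji family without demethylase activity, had the largest count of all, 68021, over the longest span, 192 kb (chr13:44729474-44921643), and 354 per kb. Aebp2, a zinc finger protein, had 255 per kb, and the ratio of Jarid2 to Aebp2 was 1.39, against 4.84 per kb of exon and 4.77 without length.

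The PRC1 ligases also had unequal levels. Rnf2 had 10764 counts over 43.0 kb and 251 per kb (90.8th percentile). Ring1 had 201 counts over a short gene of 3.89 kb, which gave 51.7 per kb (59.9th percentile). Rnf2 was thus 4.85 times Ring1 per kb. The gap was wider per kb of exon, 42.1 times, and on the count itself, 53.5 times.

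Canonical PRC1 had a median of 123 per kb over 8 genes, of which 4 lay above the upper quartile. Of the PCGF proteins that pair with the ligase, Pcgf2 (MEL18) had 2822 counts and 242 per kb and Bmi1 (PCGF4) had 710 counts and 73.9 per kb, a ratio of 3.27. Among the CBX readers of the methyl mark, Cbx7 stood out with 19956 counts over 55.3 kb (chr15:79915807-79971119), or 361 per kb (95.0th percentile). Cbx2 had 821 counts and 98.8 per kb, and Cbx8 had 46.2 counts and 9.90 per kb. A RefSeq start lies 38473 bases inside the span of Cbx7, and the whole count over the 16.8 kb from there would give 1185 per kb. Mtf2 also has a RefSeq start inside its span, by 12491 bases, so this value cannot be ranked against the full-span level of Mtf2. Which start of Cbx7 was used was not tested. Cbx7 was 3.65 times Cbx2 per kb of span, 15.9 times per kb of exon and 24.3 times without length. It was 36.4 times Cbx8, 245 times per kb of exon and 432 times without length. Cbx2 and Cbx8 lie next to each other on chromosome 11 on opposite strands, and their levels differed 9.98 times per kb of span, 15.3 times per kb of exon and 17.8 times without length.

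The level of Cbx6 could not be read from this table. Its pooled mean was 0.324, but 10342 of its 10793 bases (chr15:79823896-79834688) lie within the span of Npcd on the same strand, which leaves 451 bases of its own. Of 181 coding genes that lie wholly inside another coding gene of the same strand and share no exon base with it, 179 were listed at 0, and the highest had a mean of 7.24. Cbx6 is not wholly inside Npcd and shares 563 exon bases with it. Of 20408 coding genes with no overlap of a coding gene on their strand, 72.3% had a mean of at least 10. Cbx6 was therefore left out of the medians.

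The polyhomeotic proteins, whose SAM domains polymerise, ranked Phc1, Phc3 and Phc2 per kb of span, while Phc2 stood above Phc3 per kb of exon and Phc3 slightly above Phc1 without length. Phc1 had 10151 counts over 22.8 kb and 445 per kb (96.5th percentile). Phc3 had almost the same count, 10362, over a gene of 70.0 kb, and so 148 per kb. Phc2 had 5578 counts over 98.2 kb and 56.8 per kb. Phc2 has annotated starts 34036 and 72869 bases inside this span, and transcription from an inner start covers less of it, so its value per kb depends on which start was used. The whole count over the 25.3 kb from the innermost start would give 220 per kb, and which start was used was not tested.

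Variant PRC1 had a median of 130 per kb over 9 genes, of which 5 lay above the upper quartile. Canonical PRC1 stood above variant PRC1 without length, with RefSeq spans and by the geometric mean (111 against 101 per kb). Rybp, which stimulates H2A ubiquitylation, was the highest, with 34312 counts over 58.9 kb (chr6:100228565-100287485), or 582 per kb (97.7th percentile). Its paralogue Yaf2 had 2200 counts over a span of similar length, 52.7 kb, and 41.8 per kb. Rybp was 13.9 times Yaf2, 6.16 times per kb of exon and 15.6 times without length.

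Of the PCGF proteins that define the variant complexes, Pcgf6 (PRC1.6) had 174 per kb, Pcgf3 (PRC1.3) 171 and Pcgf1 (PRC1.1) 130. Pcgf3 over Pcgf1 was 1.31 per kb of span, 3.47 per kb of exon and 20.1 without length. Pcgf6 and Pcgf3 differed 1.02 times per kb of span, and Pcgf3 was the higher per kb of exon and without length. Pcgf5 (PRC1.5), close in sequence and role to Pcgf3, had 16.9 per kb, with 1900 counts over 113 kb, and it stood above Pcgf1 when counts were not divided by length. It also has a RefSeq start 61439 bases inside the span, from which the whole count would give 37.1 per kb. Pcgf1, the shortest of the genes at 2.99 kb, had 389 counts.

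Of the other variant subunits, L3mbtl2, the MBT-domain protein of PRC1.6, had 5276 counts and 216 per kb (88.2nd percentile). Kdm2b, the CpG-binding subunit of PRC1.1, had 12225 counts and 103 per kb. A start 89456 bases inside its span gives a shorter form, over which the whole count would give 412 per kb. Bcor, the partner of PCGF1 in PRC1.1, had 3788 counts over 124 kb and 30.6 per kb (53.4th percentile). Within PRC1.1 the 3 genes Pcgf1, Kdm2b and Bcor thus ran from 130 to 30.6 per kb.

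**Figure D2:**
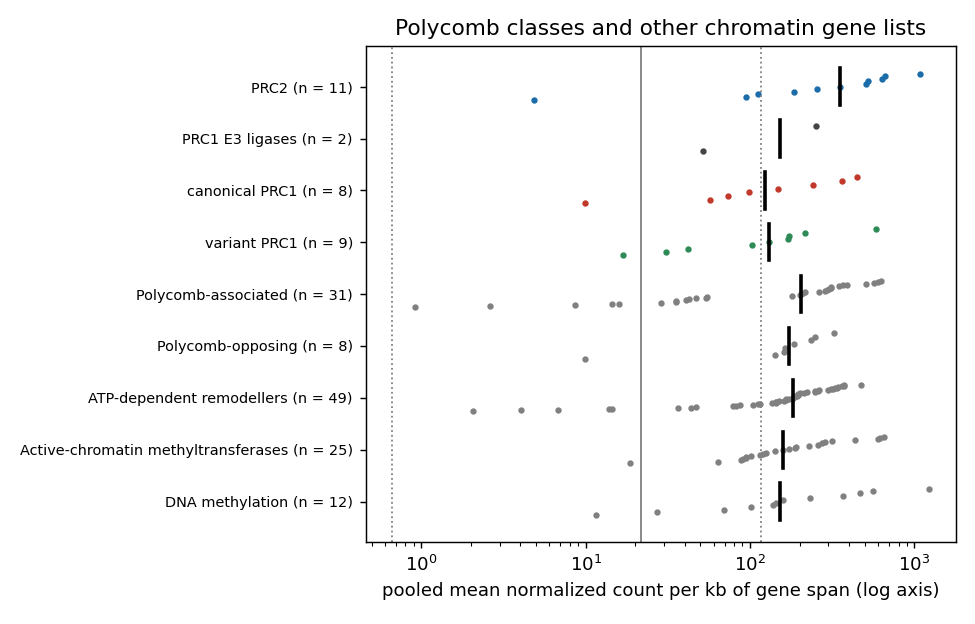
Pooled mean normalized count per kb of gene span (log axis) for the genes of each Polycomb class and of 5 lists of other chromatin genes. Points are genes, black bars list medians, the solid line the median and the dotted lines the quartiles of all coding genes. Cbx6 is left out and Pagr1a, listed at 0, enters its list's median but cannot be drawn; it overlaps other genes on its strand, and the median without it is 166. PRC2 has the rightmost median (354), and the other lists have medians from 152 to 205.

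Set beside other chromatin regulators, PRC2 lay higher and both PRC1 classes slightly lower by the median. The 31 other Polycomb partners (Skp1 was also listed as Skp1a) had a median of 205 per kb and 18 above the upper quartile. They ran from Scml4 at 0.915 to Epop, a PRC2.1 partner, at 626. The 8 enzymes that oppose Polycomb by removing its marks, with their cofactors, had a median of 173 and 7 above the upper quartile. Medians were 184 for 49 subunits of ATP-dependent remodellers and 159 for 25 methyltransferases of active chromatin and their partners (166 without Pagr1a). For 12 genes of DNA methylation and its removal, not all of them enzymes, the median was 152. The position of Polycomb genes in the upper part of the table was shared by these lists, and no difference between lists was tested.

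The cell type given by the labels was read in the markers. All 12 embryonic stem cell markers lay above the upper quartile per kb, with a median of 1267, and Sox2 and Nanog had 2910 and 2070. The 8 fibroblast markers had a median of 1.16 per kb, the highest being Pdgfrb at 23.8. The 8 neuronal markers had a median of 0.194 and the 8 blood markers 0.180, with none above the upper quartile. Of these, 2 neuronal and 2 blood markers were listed at 0, and 3 of these 4 (Tubb3, Neurod1 and Itgam) overlap another gene on the same strand as Cbx6 does, so that their 0 cannot be read as absence of transcription.

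PROMPTs of the Polycomb genes ranged from no reads to some of the highest in the table. Suz12 had the highest, with a pooled mean of 189 normalized counts in its window (99.6th percentile of PROMPTs with reads), which was 37.6% of the sum over the 27. Mtf2 followed with 63.8, Aebp2 with 46.2, Rybp with 44.6, Pcgf2 with 39.5, Pcgf6 with 30.2, Pcgf1 with 21.4, Rbbp7 with 18.7 and Cbx7 with 17.4. These 9 had means of at least 10, while 8 lay between 1 and 10 and 10 below 1. A mean of 1 stands for 18 normalized reads over all the libraries.

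**Figure D3:**
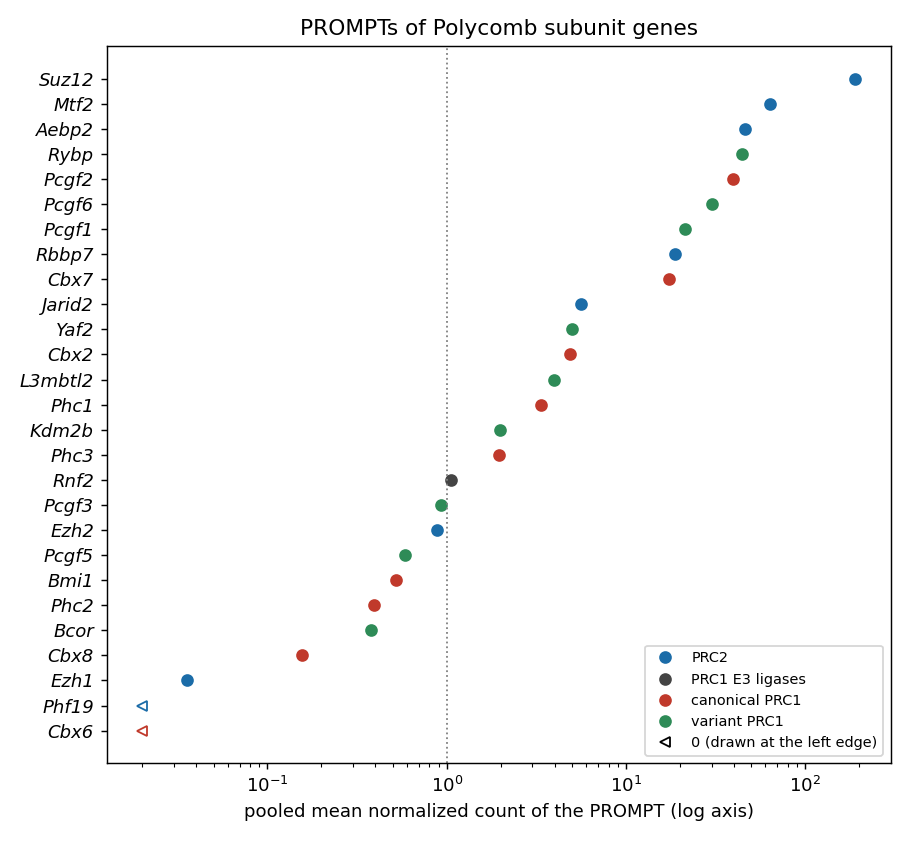
Pooled mean normalized count in the PROMPT window (log axis) of the 27 Polycomb subunit genes with a PROMPT row, coloured by class, each point 1 pooled value with no error available. The dotted line is a mean of 1, and open triangles at the left edge are means of 0. Suz12 stands alone at 189, 9 genes lie at or above 10 and 10 below 1.

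By class, PRC2 again had the highest median. Its 8 PROMPTs had a median of 12.1, with 4 at or above 10. The 9 of variant PRC1 had a median of 3.98, with 3 at or above 10, and the 9 of canonical PRC1 a median of 1.95, with 2. Over the 27 the median was 3.35, against 0.734 over the PROMPTs of 16608 coding genes with reads. The median for coding genes with a mean of at least 1000 was 3.15 and that for the 21 Polycomb genes above the same limit was 3.98. At or above 10 were 28.8% of the former and 38.1% of the latter.

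Within PRC2 the PROMPT levels did not follow the roles of the proteins. Suz12 and the catalytic Ezh2 and Ezh1 are all core subunits, yet their PROMPT means were 189, 0.884 and 0.0357. The value for Ezh1 was shared by 111 PROMPTs and sums to 0.642 normalized reads over the libraries, the size of a single read in 1 library. Its window was 63.7% repeat sequence, while that of Suz12 was 22.1% and that of Ezh2 12.4%. The rank correlation of PROMPT level with repeat content was 0.0864 across the 27 genes and -0.0170 across 16591 coding genes. The part of repeats in these values was not tested. Jarid2, with the largest gene count, had a PROMPT mean of 5.61, and Phf19 was listed at 0. Eed, Rbbp4 and Phf1 had no PROMPT row. Another coding gene, Zbtb8os for Rbbp4 and Kifc5b for Phf1, lies within 1 kb upstream. Windows so close to another coding transcript were outside the definition deposited with the table, although Bmi1 has a row with Commd3 as near. No coding gene was found so near upstream of Eed, nor of Ring1, which also had no row.

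In PRC1 the PROMPT of Rnf2 had a mean of 1.05 and Ring1 had no row. In canonical PRC1, Pcgf2 (39.5) and Cbx7 (17.4) were followed by Cbx2 (4.86), Phc1 (3.35), Phc3 (1.95), Bmi1 (0.522), Phc2 (0.395) and Cbx8 (0.155), with Cbx6 at 0. The annotated 5′ end of Cbx7 lies 38473 bases from its RefSeq start, so it is not settled which start its PROMPT row belongs to. In variant PRC1, Rybp (44.6), Pcgf6 (30.2) and Pcgf1 (21.4) were followed by Yaf2 (4.97), L3mbtl2 (3.98), Kdm2b (1.98), Pcgf3 (0.930), Pcgf5 (0.582) and Bcor (0.377). Of the PCGF proteins, Pcgf1, Pcgf2 and Pcgf6 thus had PROMPTs above 20 and Bmi1, Pcgf3 and Pcgf5 below 1.

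PROMPT and gene tables may have been normalized separately, so the levels were set side by side as percentiles within each table. The rank correlation between gene count and PROMPT count was 0.556 across the 27 genes (0.504 without Cbx6, whose gene level could not be measured) and 0.564 across the 16608 coding genes, and among genes with a mean of at least 1000 it was 0.469 across the 21 Polycomb genes and 0.0860 across all coding genes. These are across genes of pooled libraries, and genes are not independent replicates. The PROMPT stood at a lower percentile than the gene for 20 of 27 (74.1%), beside 57.6% of all coding genes. Without Cbx6 this was 19 of 26 (73.1%), and 19 of 26 also with the gene ranked per kb, beside 58.1% of coding genes on that scale. Among genes with a mean of at least 1000, this was so for 16 of 21 Polycomb genes and for 66.8% of 6589 coding genes.

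With genes ranked by count, the distance was largest in Ezh1, whose gene lay at the 77.0th percentile and whose PROMPT lay at the 3.28th. Phc2 followed, with the 84.7th and 37.4th, then Ezh2, with the 94.1st and 51.3rd, and Bcor, with the 78.9th and 36.6th. Ranked per kb, Ezh1 was again farthest, with its gene at the 70.3rd percentile, and was followed by Phf19 (38.3 percentile points), Rnf2 (36.8), Ezh2 (34.0) and Pcgf3 (31.4), while the long genes Phc2 (23.8) and Bcor (16.8) came lower. In the opposite direction, Pcgf1 had its gene at the 49.1st percentile and its PROMPT at the 91.2nd. Pcgf1 is a short gene, and its count per kb stood at the 77.3rd percentile, nearer to that of its PROMPT. Pcgf2, with the 74.6th and 95.3rd, Cbx2, with the 57.1st and 75.4th, and Pcgf6, with the 75.5th and 93.6th, lay on the same side. Suz12 and Aebp2 stood at nearly the same percentile in both tables.

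**Figure D4:**
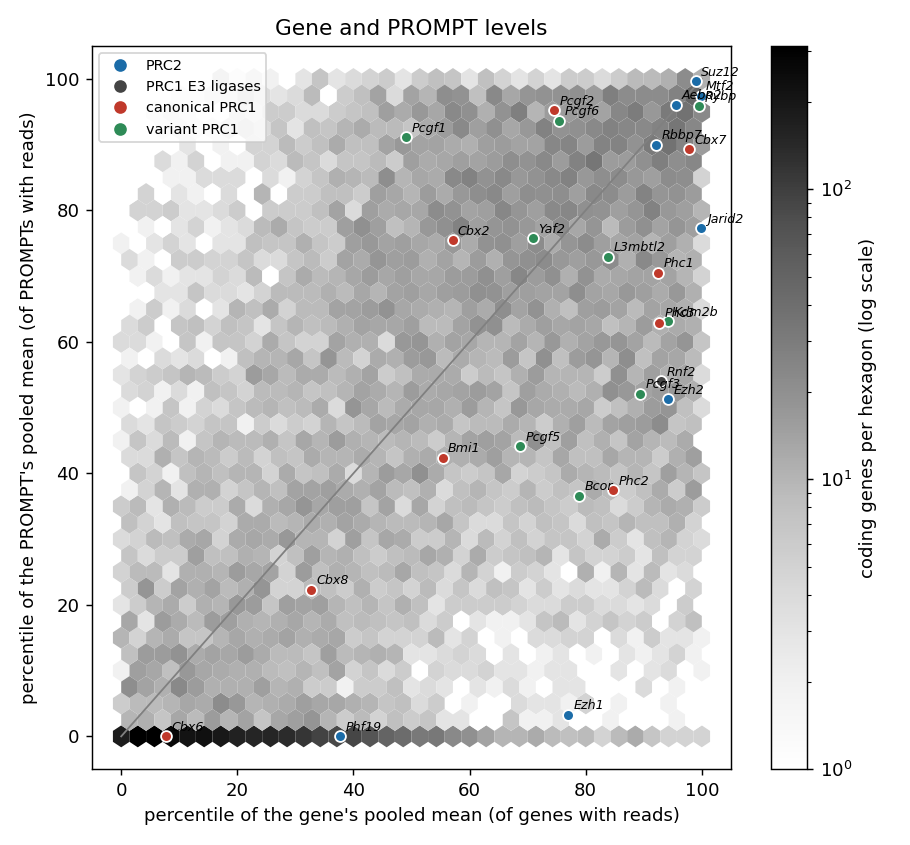
Percentile of the PROMPT's pooled mean among PROMPTs with reads (vertical) against the percentile of the gene's pooled mean among genes with reads (horizontal), for 27 Polycomb subunit genes (coloured points) over all coding genes with a PROMPT row (grey hexagons, number of genes on a log scale). The line marks equal percentiles. Of the 27, 20 lie below it, Ezh1 farthest, and Pcgf1 lies farthest above it.

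The base composition of the 1-kb window itself showed no clear relation to the PROMPT level among these genes. Median GC content was 48.6% in the 9 genes with a PROMPT of at least 10 and 49.7% in the 10 with less than 1. The observed to expected CpG ratio was 0.641 in the former and 0.521 in the latter, with ranges that overlapped. Across the 27 the rank correlation of PROMPT level with this ratio was 0.121, against 0.374 across 16591 coding genes. Aebp2 had the lowest ratio of the 27, 0.119, together with the third highest PROMPT. Its annotated start with most CpGs lies 2246 bases downstream of the 5′ end used here, so it is not settled which start its PROMPT row belongs to. Rybp, with a PROMPT of 44.6, had a GC content of 70.0%, and Bmi1, with a PROMPT of 0.522, had 67.7%. These windows were placed by the 5′ end of the Gencode gene, and the authors' release was a later one.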

How the data were processed

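TT-seq libraries of untagged and SPT16-AID E14 cells (18, in 6 groups of 3) were grouped by the labels. By the methods of the study, reads were trimmed with Trim Galore and aligned to mm10 with STAR keeping unique alignments. They were then counted by strand with featureCounts on Gencode vM25. The processing records of the samples name HTSeq among the tools and not featureCounts. The authors divided counts by DESeq2 size factors, and the deposited mean normalized count (a signal column) is their mean over libraries, without SD or n. It was taken to span all 18 libraries, which the sources used here do not state. The other 4 columns of each table hold the authors' log2 fold change, its standard error, p and adjusted p and were not used. The eRNA and ncRNA tables, without gene names, were not used either.

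Percentiles are the percent of features with a mean above 0 that lie strictly below. Spans came from Gencode vM21 on GRCm38 (21780 of 21859 gene identifiers matched, and 20108 genes had both reads and a span), so genes redrawn later can differ. The depth of each library is unknown here. All members are named, and of other lists the medians, extremes and cell markers. Members, lists and motifs were chosen with earlier results of these data known. Alternatives were other denominators, limits on low values and summaries. Python 3.11.15, numpy 2.4.6, pandas 2.3.3 and matplotlib 3.10.9 were used. Routines were tested on simulated data.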

Additional observations from a re-analysis of the deposited data

How the results depend on the processing

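The median percentile of the genes moved by less than 1.5 times. So did the class medians as percentiles under exon length, no length or RefSeq spans, or with Cbx6. They ran from 92.4 to 95.6 in PRC2, from 71.3 to 79.6 in canonical PRC1 and from 73.7 to 79.8 in variant PRC1. With the E3 ligases in both PRC1 classes they were unchanged. Percentiles this high cannot rise by 1.5 times, so that limit is a weak check on them. The PROMPT ranked below the gene for 20 of 27 genes, and for 19 of 26 without Cbx6, beside 57.6% of all coding genes. These counts also moved by less than 1.5 times, a limit too wide to separate them from that share. A different measure was the ratio of the PROMPT mean to the gene's level per kb. It lay below the median ratio of coding genes (0.0451) for 17 of the 27 genes, Cbx6 included. By construction, coding genes fall below that median as often as above it. The order PRC2 above variant above canonical PRC1 did not hold throughout: without length canonical PRC1 stood at the 79.6th and variant PRC1 at the 78.9th percentile, and with RefSeq spans, an alternative added after seeing the data as were both settings of Cbx6, genes ranked per kb and the inner starts, at the 74.5th and 73.7th. By the geometric mean canonical PRC1 (111 per kb) also stood above variant PRC1 (101), and PRC2 was at 232 per kb against its median of 354. The median PROMPT percentile fell from 70.5 to 37.0 among PROMPTs with a mean of at least 1 and to 0 among those of at least 10, since the median member lies below that limit. Paralogue ratios depended on the length used: of 19 pairs, 18 moved by over 1.5 times or turned with exon length or no length (15 moved and 2 turned with exon length, 12 and 4 without length), and none did with RefSeq spans. Rbbp4 over Rbbp7 was 0.491 per exon kb, Rnf2 over Ring1 was 42.1 per exon kb, and without length Phc1 over Phc2 was 1.82 and Pcgf6 over Pcgf5 was 1.58. Directions turned in these: Rbbp4 over Rbbp7 was 1.48 without length, Phc1 over Phc3 was 0.980 without length, Phc3 over Phc2 was 0.751 per exon kb, Pcgf6 over Pcgf3 was 0.730 per exon kb and 0.384 without length, and Pcgf1 over Pcgf5 was 0.204 without length. No replicate could be left out, and no paired analysis was possible because the columns used are pooled over libraries. No symbol had more than 1 PROMPT row, so no choice among rows arose. Low PROMPT means rest on few reads.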
